A study of Zingiber officinale with 6 samples.

Results

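The genes of 2 MYB-CC transcription factors were described in ginger leaf blades, among the 55601 genes of the deposited tables. They were taken by row ID and had been listed with results of these same plants known. LOC121983863 is named protein PHR1-LIKE 3-like by the study's gene table. LOC122009450 is known in the sources used here only by its Myb-like DNA-binding and MYB-CC domains, and it is the gene of this family that the study displayed and measured by qPCR. Both had been selected by the study as upregulated in these libraries, so their difference between the groups is given as a description, with no test. MYB-CC proteins combine a single Myb-type DNA-binding repeat with a coiled coil through which they pair. The best-known member, PHR1 of Arabidopsis, switches on genes that take up, recycle and save phosphate when phosphate is short. While phosphate is plentiful, SPX proteins bind such factors and hold them away from their target genes. The link of the ginger genes to phosphate rests on their domains and names, and no measurement of phosphate was used here.

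The plants were Zingiber officinale of the Laiwu variety, grown for 21 days in pots of sterilized vermiculite and organic matter with holes in the base, each sealed onto a glass jar. In the P. oligandrum VOC-exposed group (Po-VOCs, 3 samples), the jar held P. oligandrum GAQ1 growing on V8 agar, so that volatile organic compounds could reach the roots. In the control group (not VOC-exposed, 3 samples), the jar held V8 agar alone. RNA came from the blades of the 2 uppermost leaves, with 1 library per biological replicate, called a sample below. The study speaks of 3 plants per group, that is, 1 plant per sample. In such bulk RNA, fewer cells of a type and less RNA per cell cannot be told apart. Total counts ranged from 13695463 to 14662442 per library, and 41508 genes had enough counts to be tested. The nuclear leaf genes were not named in the sources used here, so plastid genes were described instead. The libraries were made with a kit for mRNA, and how much plastid RNA it keeps was not tested. The plastid values are thus no check of the tissue. PsbA, which encodes a photosystem II reaction centre protein, had 5.98 to 16.3 FPKM (the count scaled by gene length and by library total) in 5 samples and 57.2 FPKM in Po-VOCs sample 3. That sample was also the highest for rbcL, the large subunit of Rubisco (6.56 FPKM against 0.338 to 1.24 in the others), and for psaB of photosystem I (5.42 against 0.298 to 2.22), while psaA was at or near 0 in every sample, at most 0.0316 FPKM. The part of this in the results below was not tested, and values without this sample are given for both members and for LOC121984272, the gene set beside LOC122009450 further on.

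Primers are shown because the study lists them for 1 member, which it followed by qPCR in the same RNA, and for its reference gene. LOC122009450 lies on chromosome 1A from 116994245 to 116995661 in the Zo_v1.1 assembly, and the reference, LOC121989190, which encodes elongation factor Tu domains and served as EF-1α, lies on chromosome 6B from 117801014 to 117805438. No base is set in capitals, because no stretch was singled out.
LOC122009450 forward: cttccgagcttacggtcctc
LOC122009450 reverse: catccccttccatgccctac
LOC121989190 forward: gatggacagacacgagaa
LOC121989190 reverse: gagacctccttgacgatt
The primers of LOC122009450 are 20 bases long with 60.0% G and C, and those of the reference gene are 18 bases long with 50.0%. Where they anneal within the genes, and whether they also amplify other genes, was not analysed here.

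LOC122009450 was the abundant member. Its level was 31.9, 24.2 and 25.3 FPKM in control samples 1, 2 and 3, against 100.2, 59.0 and 136.8 FPKM in Po-VOCs samples 1, 2 and 3. The lowest exposed sample was 1.85-fold above the highest control sample, so the groups did not overlap. Of all genes tested, 14.5% had every exposed sample above every control sample. The control mean was 27.2 ± 4.14 FPKM and the exposed mean 98.7 ± 38.9 FPKM (SD, n = 3 each), their ratio was 3.63, and the fitted log2 fold change was 1.87 with a standard error of 0.35. The exposed samples were also the more scattered, with a coefficient of variation of 39.5% against 15.3% in the control samples. The highest value was that of Po-VOCs sample 3, the sample with the high psbA level, and without it the log2 fold change was 1.48. By level, the gene ranked between 3662 and 4997 among the 55601 genes in the control samples and between 699 and 1628 in the exposed samples, that is, within the top 3% in every exposed sample.

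LOC121983863 was scarce in control leaves. This gene, on chromosome 5B from 1504935 to 1506433 and annotated with 2 transcripts, had 9, 8 and 15 counts in control samples 1, 2 and 3, against 112, 125 and 64 counts in Po-VOCs samples 1, 2 and 3. In FPKM, this was 0.534, 0.465 and 0.883 in the control samples and 6.80, 7.09 and 3.79 in the exposed samples. All exposed samples lay above all control samples, the lowest of them 4.29-fold above the highest control. The control mean was 0.627 ± 0.224 FPKM and the exposed mean 5.90 ± 1.83 FPKM (SD, n = 3 each), a ratio of 9.40, with a fitted log2 fold change of 3.20 and a standard error of 0.37. Here Po-VOCs sample 3 was the lowest of the exposed samples, and without it the log2 fold change was 3.41. Counting error alone is wide at the control level, where the 8 counts of control sample 2 have an exact 95% Poisson interval of 3.45 to 15.8. In the exposed samples the intervals ran from 49.3 to 81.7 for the lowest count and from 104.0 to 148.9 for the highest. The interval of Po-VOCs sample 1, 92.2 to 134.8, overlapped with that of sample 2, so which of them was higher lies within counting error. Between 67.7% and 73.7% of all genes were more abundant than LOC121983863 in the control samples, and between 31.6% and 41.8% in the exposed samples.

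**Figure D1:**
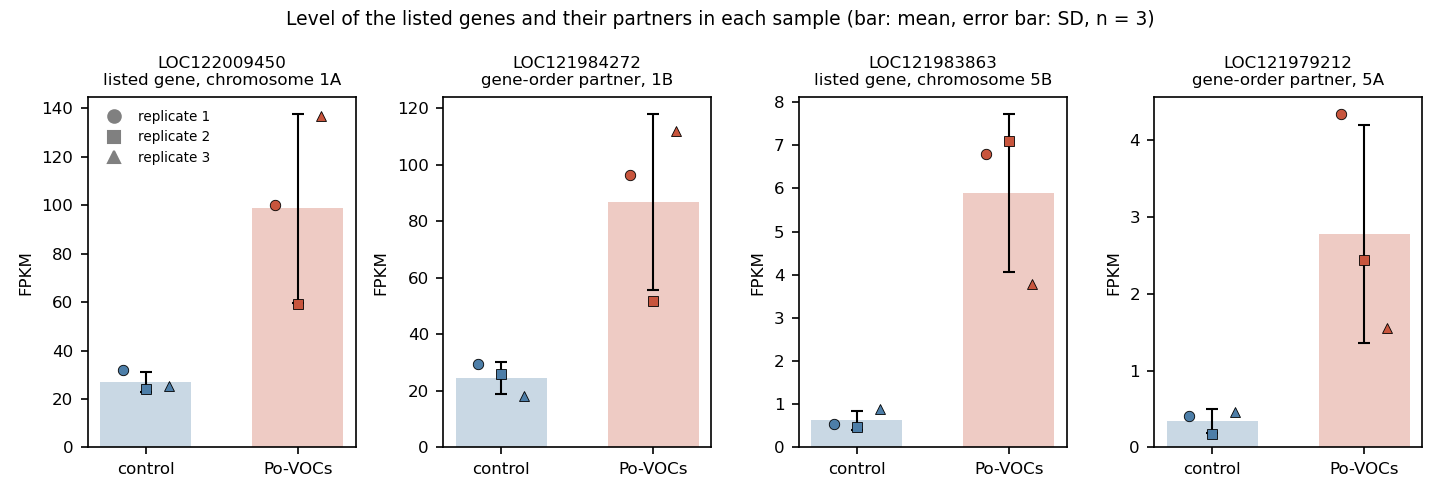
FPKM of the listed genes LOC122009450 and LOC121983863 and of their gene-order partners on the chromosome of the other letter, in each sample (points, 1 symbol per replicate number), with the mean (bar) and SD (error bar) of 3 samples per group. The exposed samples lie above all control samples in each of the 4 panels, Po-VOCs sample 3 is the highest exposed sample in the panels on the left and the lowest in those on the right, and the vertical scales differ between panels.

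The members differed in level and in which exposed sample was highest. LOC122009450 exceeded LOC121983863 by 28.7 to 59.8 times in FPKM in the control samples and by 8.31 to 36.1 times in the exposed samples, so the ranges of this ratio overlapped. Po-VOCs sample 3 gave the highest value of LOC122009450 and the lowest of LOC121983863, while Po-VOCs sample 2 gave the lowest of the former and the highest of the latter. For LOC121983863, samples 1 and 2 lay within counting error of each other. Over the 6 samples, the log2 CPM (counts scaled to library totals corrected by TMM) of the members had a Pearson r of 0.8249, a description that includes the difference between the groups. Relative to the reference gene LOC121989190, the log2 difference between the groups was 1.95 for LOC122009450 and 3.39 for LOC121983863, against 1.87 and 3.20 from the counts. The reference gene itself had 446.2 ± 55.2 FPKM in the control and 404.9 ± 87.3 FPKM in the exposed samples (SD, n = 3 each), and its log2 fold change of -0.14 (standard error 0.26) did not pass the test (adjusted p = 0.802, edgeR's quasi-likelihood test with Benjamini-Hochberg adjustment over all genes tested). With this reference, neither member moved by more than its spread between replicates.

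Zo_v1.1 holds each chromosome in an A and a B version, so the gene at the matching place of the other version was sought for each member by aligning the order, span and number of proteins of genes. No sequence was compared, so a partner need not be the other copy of the same gene. The partner of LOC122009450 was LOC121984272, on chromosome 1B from 104520254 to 104521690, with 12 of the 20 flanking genes aligned close by. This gene was not chosen for its own values, but as the partner of a gene selected for its rise in these libraries. Its test may therefore not be independent of that selection. No description of this gene was used here. It had 29.6, 25.8 and 18.2 FPKM in control samples 1, 2 and 3, against 96.2, 51.9 and 112.1 FPKM in Po-VOCs samples 1, 2 and 3. The exposed samples stood in the same order as for LOC122009450, sample 3 highest and sample 2 lowest, and did not overlap with the control samples. The log2 fold change of LOC121984272 was 1.82 (standard error 0.36, n = 3 each), and 1.52 without Po-VOCs sample 3. It missed the threshold of 0.05 in the quasi-likelihood test of edgeR (adjusted p = 0.0516, unadjusted p = 0.0012) and passed it in DESeq2 (adjusted p = 7.5e-05), and over all settings tried its adjusted p lay between 7.5e-05 and 0.175.
LOC122009450 supplied 49.3%, 45.8% and 55.6% of the counts of this pair in control samples 1, 2 and 3, against 48.4%, 50.6% and 52.3% in Po-VOCs samples 1, 2 and 3. The ranges overlapped, and the mean log2 ratio of the FPKM values was 0.17 in the control and 0.18 in the exposed samples, a difference of 0.01 against SDs of 0.29 and 0.11 (n = 3 each). How the authors counted reads that fit both genes is not given in the sources used here. Whether the pair shares reads was not tested.

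The partner of LOC121983863 was LOC121979212, on chromosome 5A from 760717 to 762243, with 10 of 20 flanking genes aligned close by. Its name in the study's gene table is protein PHR1-LIKE 2-like, and its annotation holds the same Myb-like and MYB-CC domains. Being among the study's upregulated genes, it is described with no test. It had 7, 3 and 8 counts in control samples 1, 2 and 3, against 73, 44 and 27 counts in Po-VOCs samples 1, 2 and 3, or 0.406, 0.171 and 0.461 against 4.34, 2.44 and 1.56 FPKM. The groups did not overlap, and the fitted log2 fold change was 2.94 with a standard error of 0.53. LOC121983863 was the more abundant of this pair in each of the 6 samples, by 1.31 to 2.73 times in the control and by 1.57 to 2.90 times in the exposed samples. The mean log2 ratio was 0.93 in the control samples and 1.16 in the exposed samples, a difference of 0.23 against SDs of 0.53 and 0.46 (n = 3 each). In both pairs, the difference of the ratio between the groups was thus smaller than its spread among samples of a group.

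Besides LOC121983863, a further 5 genes with both domains, LOC121979212 included, were named in the rows used of the study's gene table, all of them upregulated by the study's own call, which makes 7 MYB-CC genes with LOC122009450. The study's own list of such genes is longer than the rows used here, so counts and ranks below cover these 7 and not the family. Among the 5 is LOC122010318, on chromosome 8A from 133510303 to 133513076, named protein PHOSPHATE STARVATION RESPONSE 3-like. In rice, PHOSPHATE STARVATION RESPONSE proteins are the counterparts of PHR1. It had 6.83, 3.90 and 4.57 FPKM in control samples 1, 2 and 3, against 29.0, 12.1 and 15.4 FPKM in Po-VOCs samples 1, 2 and 3, without overlap, and its fitted log2 fold change was 1.85 (standard error 0.36). Its gene-order partner LOC122016659, on chromosome 8B from 108797529 to 108800291, with 9 of 20 flanking genes aligned close by, had 2.44, 4.70 and 2.77 FPKM in control samples 1, 2 and 3, against 3.35, 2.83 and 2.07 FPKM in Po-VOCs samples 1, 2 and 3. For LOC122016659 the groups overlapped, and the log2 fold change of -0.28 (standard error 0.31, n = 3 each) did not pass edgeR's quasi-likelihood test (adjusted p = 0.657, between 0.56 and 0.942 over all settings tried). LOC122010318 supplied 42.6% to 71.5% of the counts of this pair in the control samples and 79.3% to 88.5% in the exposed samples. Whether the genes of this pair are copies of one gene was not tested, as for the other pairs. The lengths implied by FPKM differed within each pair. They were 1596 and 1785 bases here, 983 and 1092 for LOC122009450 and LOC121984272, and 1202 and 1229 for LOC121983863 and LOC121979212.

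The remaining genes with these domains were all named myb-related protein 2-like. LOC122000930, on chromosome 7A, had 0.779 to 1.34 FPKM in the control samples and 2.37 to 6.18 FPKM in the exposed samples, with a log2 fold change of 1.73 (standard error 0.40). LOC122005215, on chromosome 7B, had 1.59 to 2.94 FPKM in the control samples and 4.18 to 11.0 FPKM in the exposed samples, with a log2 fold change of 1.56 (standard error 0.37). LOC122027147, on chromosome 10A, had 2.02, 2.03 and 2.61 FPKM in control samples 1, 2 and 3, against 9.93, 6.27 and 2.63 FPKM in Po-VOCs samples 1, 2 and 3. Its lowest exposed sample was only 1.01-fold above the highest control sample, so the groups lay next to each other without overlap. None of these 3 genes had a gene-order partner within the span tolerance of 5%. LOC122000930 and LOC122005215 lie on the A and B versions of chromosome 7 and share a name. Their annotated spans, 2366 and 2080 bases, differ by more than this tolerance, so the search could not pair them. Whether they are copies of one gene was not tested.
Among the 7 MYB-CC genes, the listed LOC122009450 was the most abundant in each of the 6 samples, and LOC121983863 had the largest fitted log2 fold change, 3.20, against a range of 1.45 to 2.94 in the other 6.

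All 7 genes had FPKM values in the exposed samples above those in the control samples, beside the 14.5% of all genes tested. Of the 7, edgeR's quasi-likelihood test called 3 at an adjusted p below 0.05, a log2 fold change above 1 and a mean above 1 FPKM in the exposed samples, where 1.09% of all genes tested were called up and 1.02% down. These were the 2 listed genes and LOC121979212. DESeq2 called all 7, where it called 3.57% of the genes it tested. Because the genes come from the study's calls on these libraries, nothing is read from these counts. The median log2 fold change was 1.85 over the 7 genes and 0.01 over all genes tested. The same selection set this difference in advance, so nothing is read from it either. The count of calls depended on single samples, and so did the count over all genes, which was 452 up with all samples. EdgeR called 1 of the 7 without Po-VOCs sample 1, where it called 970 genes up in all. Without control sample 3 it called 1 of the 7 and 421 genes up in all. It called 0 of the 7 without any other single sample. There it called 25 and 28 genes up in all without Po-VOCs samples 2 and 3, and 54 and 1 without control samples 1 and 2. The fitted changes were less sensitive, and after leaving out 1 sample at a time the log2 fold change lay between 1.48 and 2.15 for LOC122009450 and between 3.03 and 3.50 for LOC121983863.

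**Figure D2:**
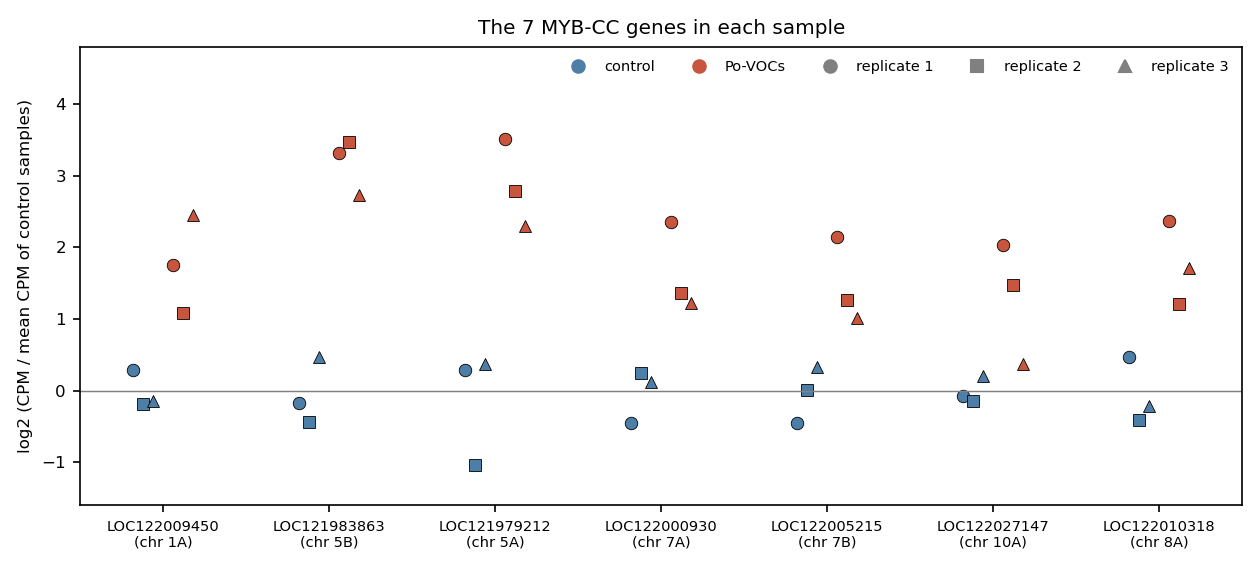
Log2 of the CPM (scaled by TMM) of the 7 MYB-CC genes relative to the mean of the control samples (vertical axis), with 1 point per sample, control samples in blue, exposed samples in red and the symbol giving the replicate number. Po-VOCs sample 1 is the highest exposed sample in 5 genes, sample 2 in LOC121983863 and sample 3 in LOC122009450.

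In exposed samples the listed genes also differed from the other MYB-CC genes in rank among samples. On the CPM scale, Po-VOCs sample 1 was highest in each of the other 5 genes, and in 4 of them sample 2 came second and sample 3 last. LOC122009450 and its partner LOC121984272 were highest in sample 3 instead. That last order, sample 3 above 1 above 2, was held by 16.7% of all genes tested and by 20.6% of the genes called up. The order of the 4 genes, sample 1 above 2 above 3, was held by 23.4% of all genes tested and by 11.9% of those called up. LOC121983863 had the order 2 above 1 above 3, held by 16.2% and 10.6%, with samples 2 and 1 within counting error of each other. With 3 samples, such orders are a description of these samples and were not tested.

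**Figure D3:**
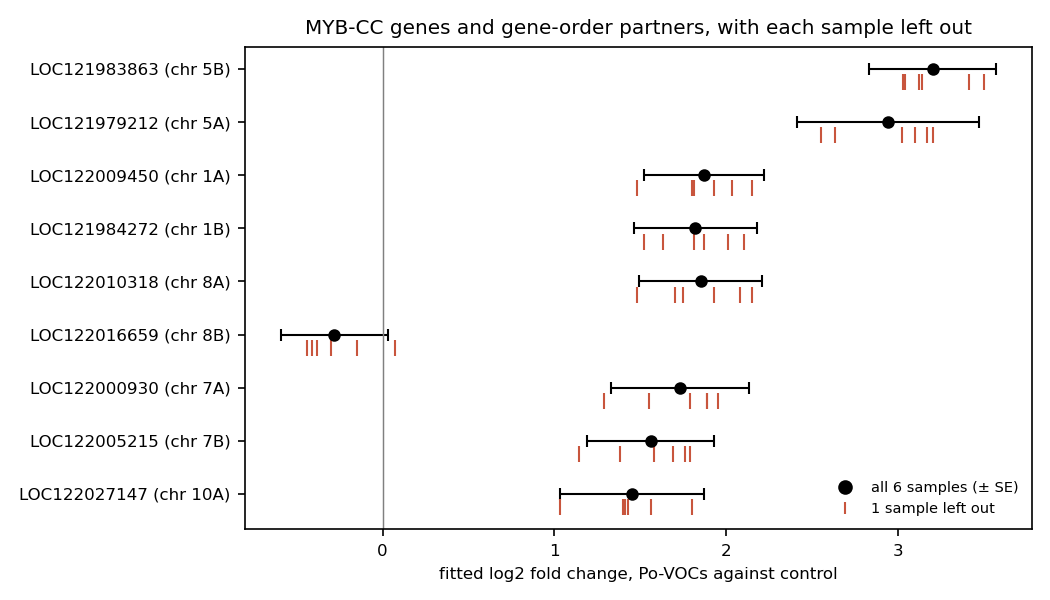
Fitted log2 fold change of the 7 MYB-CC genes and of the gene-order partners LOC121984272 and LOC122016659 (horizontal axis), from all 6 samples (black points, with the standard error) and with each sample left out in turn (red marks). LOC122016659 lies around 0, from -0.44 to 0.07, while the red marks of all other genes lie above 1.

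The neighbours of the members were compared between the groups to see whether the difference extended along the chromosome. They comprised 10 protein-coding genes on each side, a window chosen after the data had been seen, and they were taken by position alone. Around LOC122009450, 12 of the 20 neighbours were tested, with log2 fold changes between -1.82 and 3.49 and a median of 0.16. EdgeR called 0 of them in either direction, where 2.11% of all genes tested were called, and 3 had an unadjusted p below 0.05, as had 20.2% of all genes tested. DESeq2 called 0 up and 1 down, where it called 3.57% and 3.01% of the genes it tested. The value of 3.49 belonged to LOC122029076, which lies 60488 bases from LOC122009450, and was singled out after its values were seen. Its counts were 1, 2 and 2 in the control samples and 16, 23 and 21 in the exposed samples, without overlap, and it passed the adjusted p (0.0292, edgeR's quasi-likelihood test) but not the FPKM threshold, with 0.719 ± 0.109 FPKM in the exposed samples (SD, n = 3). After leaving out 1 sample at a time, its log2 fold change lay between 3.28 and 3.66, and its adjusted p was above 0.05 without any sample but Po-VOCs sample 1. LOC122029095, which lies between them, differed by 0.16 on the log2 scale (edgeR adjusted p = 0.767). Around the partner LOC121984272, 11 of the 20 neighbours were tested, with a median log2 fold change of 0.05 and a range of -0.46 to 1.92. EdgeR and DESeq2 called 0 of them, and 2 had an unadjusted p below 0.05.

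Around LOC121983863, 15 of the 20 neighbours were tested, and their median log2 fold change was -0.27, with a range of -1.37 to 1.74. EdgeR called 0 of them, and 3 had an unadjusted p below 0.05, against 20.2% of all genes tested. DESeq2 called 0 up and 1 down, against 3.57% and 3.01% of the genes it tested. The nearest neighbour, LOC121983860, ends at 1504941 and so overlaps the start of LOC121983863 by 7 bases. It had 0 counts in all control samples and 3, 3 and 0 counts in Po-VOCs samples 1, 2 and 3, against 112, 125 and 64 counts of LOC121983863, so few of the counts in this stretch fell to it. Around LOC121979212 on chromosome 5A, 13 of the 20 neighbours were tested, with a median log2 fold change of 0.03 and a range of -2.11 to 1.55. EdgeR called 0 up and 1 down there, LOC121979205, which fell by 1.55 on the log2 scale (adjusted p = 0.0321), 4 had an unadjusted p below 0.05, and DESeq2 called 1 up and 2 down. The gene called up by DESeq2 was LOC121979216, named probable polyamine transporter At3g13620, with 1.31 ± 0.189 FPKM in the control and 3.83 ± 1.30 FPKM in the exposed samples (SD, n = 3 each), and it is also among the study's upregulated genes.

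**Figure D4:**
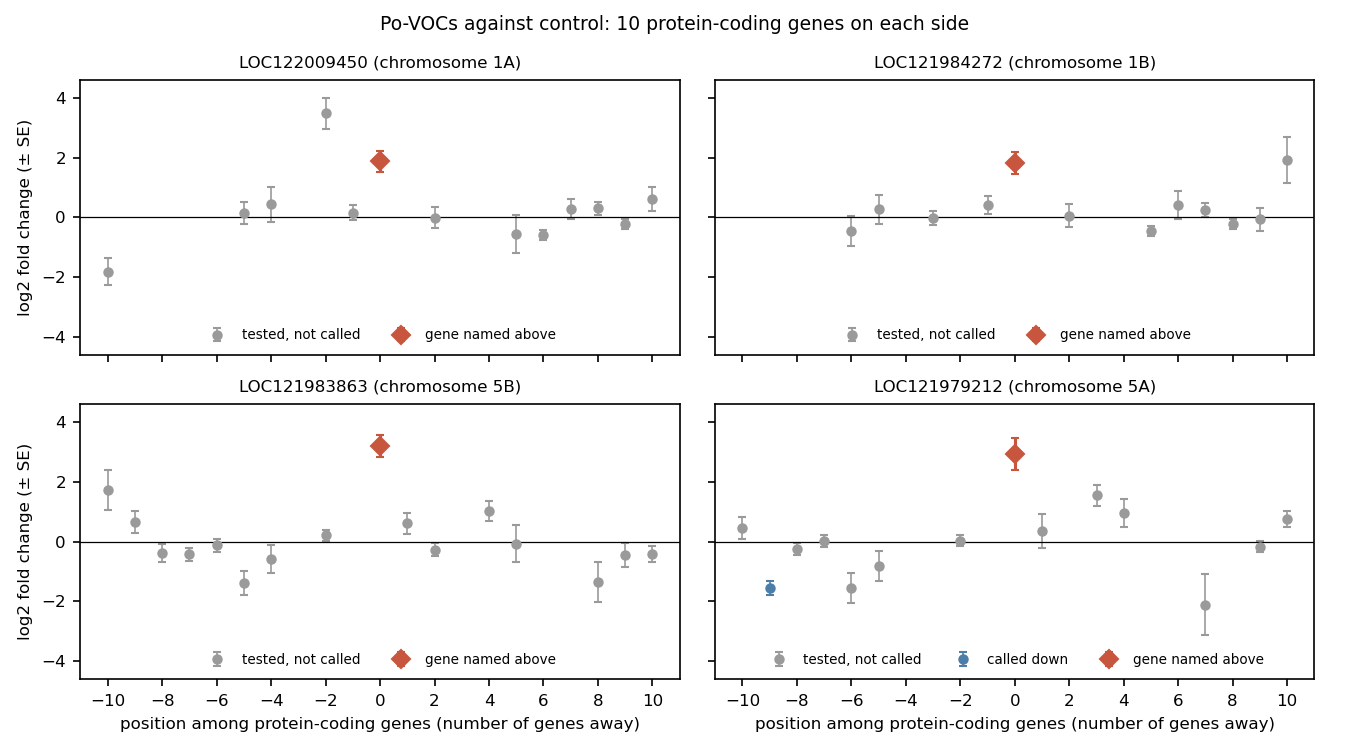
Fitted log2 fold change with its standard error (vertical axis) of tested protein-coding genes up to 10 genes away on either side (horizontal axis, in number of genes) of LOC122009450, LOC121984272, LOC121983863 and LOC121979212 (red diamonds). The neighbours scatter around 0, with medians of 0.16, 0.05, -0.27 and 0.03, and LOC122029076, 2 genes from LOC122009450, is the highest at 3.49.

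Genes with the most similar pattern were sought by the Pearson r of log2 CPM over the 6 samples, among 37982 genes with a mean above 1 FPKM in the higher group. For LOC122009450, the closest were LOC122045739 (r = 0.9981), LOC121981191 (r = 0.9967) and LOC122003005 (r = 0.9954), none of them described in the sources used here. Their log2 fold changes were 0.65, 0.74 and 0.39, against 1.87 for LOC122009450. Its partner LOC121984272 came in place 21 with r = 0.9837. For LOC121983863, the closest were LOC122001691 (r = 0.9962), LOC122030189 (r = 0.9960) and LOC121974588 (r = 0.9956), and its partner LOC121979212 came in place 129 with r = 0.9706. LOC121974588 is named indole-3-acetic acid-amido synthetase GH3.8-like, from a family of enzymes that join auxin to amino acids. It had 0, 0 and 2 counts in control samples 1, 2 and 3, against 47, 88 and 28 counts in Po-VOCs samples 1, 2 and 3, so its exposed samples stood in the same order as those of LOC121983863. With 0, 0 and 2 control counts, its control values on the log2 scale depend on the small count added before logs are taken. An r above 0.95 was reached by 273 genes (0.719% of those compared) for LOC122009450 and by 357 (0.94%) for LOC121983863. Each r rests on 6 samples and includes the difference between the groups, and the genes named are the highest of many.

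Other genes linked to phosphate handling were sought by name in the rows used of the study's gene table, which hold 1517 genes, all upregulated by the study's call. The terms were chosen after the data had been seen, namely PHO1, SPX, inorganic phosphate transporter, purple acid phosphatase, glycerophosphodiester phosphodiesterase and monogalactosyldiacylglycerol. They found 4 genes, which are described with no test, since such genes that did not rise are not in these rows. The link of these genes to phosphate rests on their names alone. LOC122032604, phosphate transporter PHO1 homolog 1-like, whose Arabidopsis relative PHO1 exports phosphate into the xylem, had 0.263 to 0.756 FPKM in the control samples and 1.07 to 3.10 FPKM in the exposed samples. LOC122006748, probable monogalactosyldiacylglycerol synthase 3, whose relatives in Arabidopsis make galactolipids that stand in for phospholipids when phosphate is short, had 1.64 to 2.24 FPKM in the control samples and 2.96 to 6.22 FPKM in the exposed samples. Glycerophosphodiester phosphodiesterases release glycerol phosphate from the head groups of broken-down phospholipids. LOC122049012 (GDPD2-like) had 0.311 to 1.1 FPKM in the control samples and 1.64 to 3.20 FPKM in the exposed samples. LOC121985296 (GDPDL4-like), whose Arabidopsis relatives are proteins of the cell surface, had 4.86 to 5.67 FPKM in the control samples and 12.5 to 23.2 FPKM in the exposed samples. Whether its protein releases glycerol phosphate was not tested. The fitted log2 fold changes of these 4 genes ran from 1.12 to 2.03. Their exposed samples differed in order, as sample 1 was highest for LOC122032604 and LOC122006748, sample 2 for LOC121985296 and sample 3 for LOC122049012.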

How the data were processed

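Counts and FPKM values of 6 leaf blade libraries were used. According to the methods, the authors trimmed paired-end reads with Trimmomatic, used HISAT2 for mapping to the assembly Zo_v1.1 (made from the cultivar Zhangliang) and counted them per RefSeq gene with HTSeq-count. The deposited counts are whole numbers and not normalized. The deposited FPKM values are attributed by the authors to Cufflinks, and all 299269 values above 0 equalled the count divided by 1 length per gene and the library total, within 0.1%. For versions, the counting mode and the strand option (the kit was stranded), nothing is given in the sources used here. Near-identical copies are therefore uncertain. Totals lay between 13695463 and 14662442 counts per library, and Poisson intervals cover counting error only.

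In R 4.3.3, edgeR 4.0.16 kept 41508 genes with filterByExpr (minimum count 10, minimum total 15), scaled libraries by TMM and ran the quasi-likelihood test with no covariate, adjusting p over those genes by Benjamini-Hochberg. Genes were called by the thresholds of the study, namely 0.05 for the adjusted p, 1 for the size of the log2 fold change and 1 FPKM for the mean of the higher group. An exact permutation test of 1 gene (two-sided) cannot go below 0.1 here. The code was tested on simulated data. DESeq2 1.42.0 and limma 3.58.1 (log2 FPKM with pseudocounts of 1 and 0.1) served as alternatives, as did other scalings, no filter, the replicate number as a block, and each sample left out.

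The members and lists were chosen with earlier results of these data known. The genes named are the members, their partners, the MYB-CC genes in the rows used of the study's gene table, the 3 genes most like each member, the reference gene and the phosphate-linked genes. A wider family list, lists of phosphate genes, partners by identity and markers of leaf and of dividing cells had been planned from protein sequences, which were not used here. Partners were therefore taken from gene order with a span tolerance of 5%, which was decided after the data had been seen, as were the neighbours, the reference gene and the phosphate-linked genes. All 55601 gene IDs matched RefSeq. The FPKM and adjusted p columns of the study's gene table were not read.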

Additional observations from a re-analysis of the deposited data

How the results depend on the processing

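The log2 fold change of LOC122009450 kept its direction and moved by less than its spread between replicates under every setting run, from 1.75 to 1.95 with other models and scalings and from 1.48 to 2.15 with each sample left out. LOC121983863 and LOC121979212 behaved alike, except that limma on log2(FPKM + 1) gave 2.05 and 1.43, where the pseudocount exceeds their control level, and with each sample left out they ranged from 3.03 to 3.50 and from 2.55 to 3.20. For LOC121984272, the log2 fold change was 1.74 to 1.82 under other settings and 1.52 to 2.10 with each sample left out. It passed the adjusted p of 0.05 in DESeq2 (1.82), in limma on log2(FPKM + 0.1) (1.77), without a composition factor (1.82) and without the filter on low counts (1.82), and the cause was not tested. LOC122016659 turned to 0.07 without control replicate 2, and the reference gene to 0.03 without Po-VOCs replicate 2, neither past the test in any setting.

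Of the 7 MYB-CC genes, 3 were called, against 7 with DESeq2 and 6 at an adjusted p below 0.1. With limma on log2(FPKM + 1) 1 was called, with the replicate block 0, and with each sample left out 0 to 1. Over all genes, 452 were called up, against 1677 with DESeq2 and 348 with limma on log2(FPKM + 1). The count over all genes at an adjusted p below 0.1 was not taken. With each sample left out, 1 to 970 genes were called up over all genes, and 65 with the replicate block. These fits had fewer residual degrees of freedom, and the part of this in the counts was not tested. Samples with the same number did not deviate together (r = -0.016, 0.024 and -0.105 for numbers 1, 2 and 3). Nothing in the labels ties them, so the numbers were not taken as pairs. With 3 samples per group, this check cannot exclude pairing. Under the block, the log2 fold changes of LOC122009450 and LOC121983863 were 1.78 and 3.19, and LOC121984272 had 1.76 (adjusted p = 0.126). The planned counts of MYB-CC genes called down and of lists of phosphate genes were not run, since their lists needed protein sequences, and the other motif setting of the family was not run for the same reason. Depth limits the low genes, with 18 counts over the 3 control samples for LOC121979212 and 32 for LOC121983863, against 1133 for LOC122009450.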
